A study of Mus musculus with 16 samples.

Results

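The genes described are 10 members of the glucocorticoid pathway, selected by symbol from the 47069 genes of the deposited count table. They were chosen with earlier results of these data known. They are the targets Fkbp5, Sgk1, Tsc22d3, Sult1a1, Hif3a, Arrdc2 and Cdkn1a, the receptors Nr3c1 and Nr3c2, and the enzyme gene Hsd11b1. RNA was sequenced from the dissected hypothalamus of inbred C57BL/6N mice on 8 diets with 2 libraries each. The diets gave 1%, 2.5%, 5% or 20% of energy as protein, each with either 60% or 20% of energy as fat, so that every protein level had 4 libraries and every fat level 8. Libraries are named below by fat/protein and replicate, so that 60/1 replicate 2 is the one numbered 2 of the diet with 60% fat and 1% protein. The question of the study was the response of the hypothalamus to dietary protein at either fat level, linked by its title to mTOR and lowered food intake. Duration of feeding, age, sex and hour of dissection are not given in the sources used here, and the labels do not say whether replicates are separate animals. The p-values therefore speak of the variation among these samples, possibly technical.

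Glucocorticoids are steroid hormones of the adrenal cortex, and corticosterone is the main one in mice. The hypothalamic peptides CRH and vasopressin drive pituitary release of ACTH, which drives the adrenal cortex, and the hormone feeds back on the hypothalamus and pituitary. Inside a cell the hormone binds the glucocorticoid receptor (Nr3c1) or the mineralocorticoid receptor (Nr3c2), which then act as transcription factors on genes such as Fkbp5, Sgk1 and Tsc22d3.

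The receptors bind DNA as dimers on a palindrome whose arms are AGAACA and TGTTCT, spaced by 3 bases. RefSeq promoter windows (build GRCm38.p6, 250 bases before to 50 after a start site) were at hand for 9 of the 10 members, 17 windows in all, and they were searched on both strands for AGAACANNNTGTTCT and for the single arm AGAACA, which is contained in the palindrome. The palindrome was found in 1 of the 17, at Sgk1, and in 3 of all 32851 windows (0.00913%). The single arm was found in 5 of the 17, at Sgk1, Tsc22d3 and Sult1a1, against 19% of all windows. The 250 bases before the start are shown 5′ to 3′ on the strand of the gene, with matches in capitals, for the Sgk1 window with the palindrome (chr10:21993640-21993889, plus strand), for a Tsc22d3 window (chrX:140600523-140600772, minus strand) and the Sult1a1 window (chr7:126676419-126676668, minus strand) with single arms, and, as an example with no match, for Fkbp5 (chr17:28486150-28486399, minus strand).
Sgk1: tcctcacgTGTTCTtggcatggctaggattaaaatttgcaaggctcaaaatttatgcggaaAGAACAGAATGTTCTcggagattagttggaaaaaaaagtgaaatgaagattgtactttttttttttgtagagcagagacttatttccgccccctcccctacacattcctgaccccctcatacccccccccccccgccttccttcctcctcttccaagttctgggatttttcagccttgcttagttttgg
Tsc22d3: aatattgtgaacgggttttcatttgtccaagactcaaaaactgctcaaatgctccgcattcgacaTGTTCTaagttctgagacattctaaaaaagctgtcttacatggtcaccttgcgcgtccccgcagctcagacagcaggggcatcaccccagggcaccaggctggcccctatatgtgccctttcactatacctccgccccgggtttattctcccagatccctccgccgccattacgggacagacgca
Sult1a1: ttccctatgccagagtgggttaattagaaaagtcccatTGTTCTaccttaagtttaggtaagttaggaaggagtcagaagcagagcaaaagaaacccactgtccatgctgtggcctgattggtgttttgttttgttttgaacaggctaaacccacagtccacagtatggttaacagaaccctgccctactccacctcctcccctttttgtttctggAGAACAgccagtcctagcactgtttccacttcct
Fkbp5: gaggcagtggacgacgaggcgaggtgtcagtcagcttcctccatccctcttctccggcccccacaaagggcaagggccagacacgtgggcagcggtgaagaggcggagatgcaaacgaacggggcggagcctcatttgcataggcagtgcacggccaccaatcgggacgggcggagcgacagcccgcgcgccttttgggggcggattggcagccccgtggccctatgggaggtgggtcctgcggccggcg
Sgk1 has 6 of the 17 windows, at different start sites, and 1 of them holds the palindrome. In that window the palindrome reads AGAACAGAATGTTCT and begins 189 bases before the window's start site, and a further single arm begins 242 bases before it. The arm at Tsc22d3 begins 185 bases before the start, and those at Sult1a1 begin 212 and 34 bases before it. A match describes letters and does not show binding, and these windows leave out introns and distant enhancers, where the known receptor sites of Fkbp5 lie.

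Total counts ran from 17731242 to 18511818 per library. All 12 listed genes of hypothalamic peptides and nuclei had counts, with a summed level of 617 to 991 CPM (the count of a gene relative to its TMM-scaled library total) at 1% protein and 836 to 984 CPM at 20% protein. In 3 of the 4 libraries at 1% protein (60/1 replicates 1 and 2 and 20/1 replicate 1) mitochondrial genes took 1.54% to 1.78% of counts, against 2.19% to 3.20% in the other 13 libraries. The rank correlation over genes between gene length and the deviation of a library from the mean log2 CPM was -0.261 to -0.169 in these 3 and -0.136 to 0.315 in the other 13. The libraries 20/1 replicate 2 and 20/2.5 replicate 2 held 5074 and 10337 counts of the cortical gene Slc17a7, against 1267 to 2513 in the other libraries. The summed level of 4 thalamic neuron markers was 472 to 644 CPM at 1% protein and 272 to 388 CPM at 20% protein. That of 4 choroid plexus markers was 44.4 to 249 CPM at 1% protein and 41.8 to 52.5 CPM at 20% protein. The 6 endothelial markers summed to 145 to 159 CPM at 1% protein and 181 to 213 CPM at 20% protein, and the 6 mural cell and fibroblast markers to 96.7 to 121 CPM and 150 to 165 CPM at those levels. The part of these shifts in the results below was not tested beyond the fits without single libraries, without the 3 libraries and without the 2 libraries just named. The fit without the 3 libraries kept only 20/1 replicate 2 at 1% protein. That library had 617 CPM of hypothalamic genes and 249 CPM of choroid plexus markers. This fit thus cannot separate mitochondrial share from tissue content, and it takes the lone library to vary like the other groups. Noncoding genes overlap Fkbp5, Hif3a, Cdkn1a and Nr3c2. Those counted and lying inside a member had 0 counts, namely Gm22146 in Fkbp5, 4833404L02Rik in Hif3a, and Gm24838 and Gm23260 in Nr3c2. Gm10649 shares 1180 bases with Nr3c2, whose count is uncertain to that extent. Reads of the overlapping genes that were not counted, at Fkbp5 and Cdkn1a, cannot be told apart from those of the members. In tissue RNA, fewer cells of a type and less RNA per cell cannot be told apart.

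At 1% protein all 7 target genes were higher than at 20% protein, from 1.5-fold for Tsc22d3 to 4.04-fold for Cdkn1a. For each of the 7, all 4 libraries at 1% protein lay above all 12 libraries at 2.5%, 5% and 20% protein, an arrangement found in 1.77% of the 16646 genes tested. The glucocorticoid receptor gene Nr3c1 was 1.19-fold lower at 1% protein, and the mineralocorticoid receptor gene Nr3c2 did not pass the test. Of the 9 members that passed the filter on low counts, 7 were called higher and 1 lower at 1% against 20% protein, where 8.26% of all genes were called higher and 6.01% lower (edgeR quasi-likelihood F test, Benjamini-Hochberg adjusted p under 0.05). The median log2 fold change of the 9 was 1.31, beside 0.0035 over all genes tested. Because the members were chosen with earlier results of these data known, these comparisons with all genes describe the set and do not test it. The tenth member, Hsd11b1, had no count.

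**Figure D1:**
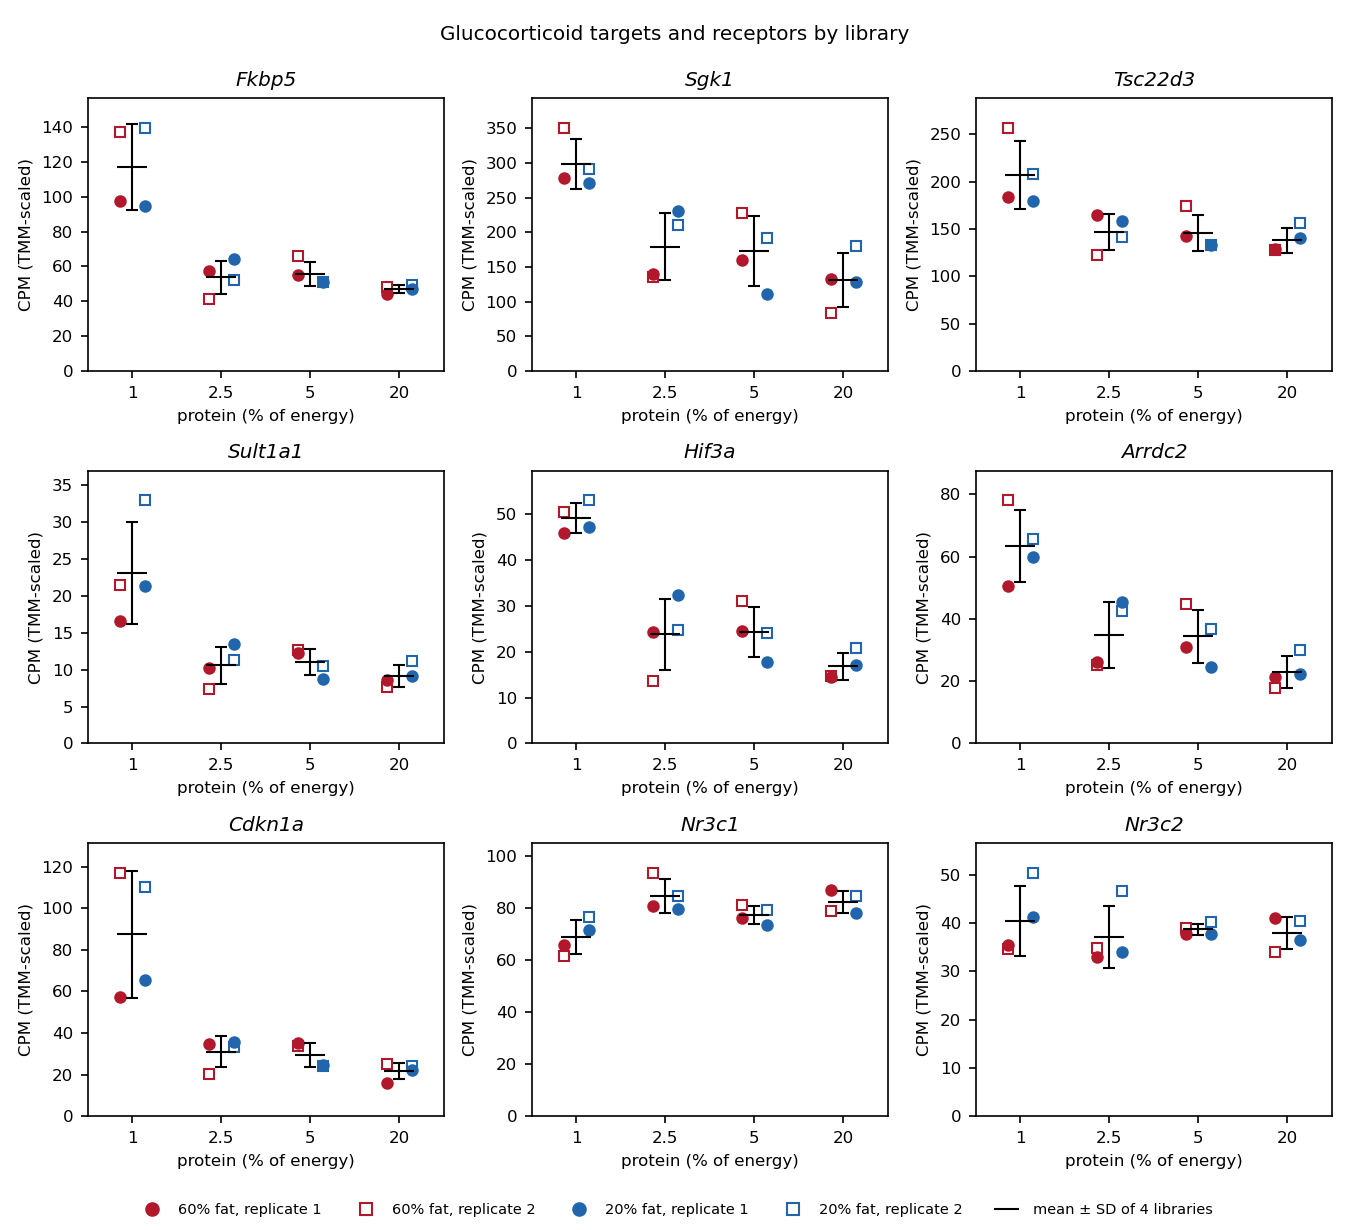
Level of 9 genes in each of 16 libraries, in TMM-scaled CPM on a linear axis, by protein in percent of energy. Red marks 60% fat and blue 20% fat, filled circles mark replicate 1 and open squares replicate 2, and black bars give the mean ± SD of 4 libraries. The 7 targets are highest in the 4 libraries at 1% protein, and Nr3c2 overlaps at all levels.

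Fkbp5 encodes a co-chaperone that lowers the hormone affinity of the receptor, and it is itself induced by the receptor in a short feedback loop. It lies on chromosome 17 (28399094 to 28517527, minus strand; GRCm38, GENCODE M21). At 1% protein it had 97.6 and 137 CPM with 60% fat and 94.4 and 139.8 CPM with 20% fat. At 2.5% protein the values were 57.3 and 41.2 CPM with 60% fat and 64.1 and 52.3 CPM with 20% fat, and at 5% protein 55.1 and 65.9 CPM with 60% fat and 50.9 and 50.9 CPM with 20% fat. At 20% protein they were 44.0 and 48.0 CPM with 60% fat and 46.9 and 49.6 CPM with 20% fat. Every library at 1% protein was thus above every other, while the levels at 2.5% overlapped those at 5% and 20%. The mean was 117 ± 24.6 CPM at 1% protein and 47.1 ± 2.33 CPM at 20% protein (SD, n = 4 each), a log2 fold change of 1.31 ± 0.14 (SE; edgeR adjusted p = 4.07e-05).

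Sgk1 encodes a kinase that acts on ion channels and transporters and takes its name from its induction by serum and glucocorticoids. The gene lies on chromosome 10 (21882184 to 21999903, plus strand), and its window with the receptor palindrome is shown above. Its libraries at 1% protein had 279 and 351 CPM with 60% fat and 271 and 292 CPM with 20% fat. At 2.5% protein it had 139.6 and 136 CPM with 60% fat and 231 and 211 CPM with 20% fat, and at 5% protein 159.9 and 228 CPM with 60% fat and 111 and 192 CPM with 20% fat. At 20% protein it had 133 and 84.0 CPM with 60% fat and 128 and 180.1 CPM with 20% fat. The 3 higher protein levels overlapped one another widely, and the lowest library at 1% protein stood above the highest of the 12 others. The mean was 298 ± 36.3 CPM at 1% protein and 131 ± 39.3 CPM at 20% protein (SD, n = 4 each), and the log2 fold change was 1.2 ± 0.22 (SE; edgeR adjusted p = 0.00311). An alternative chosen after seeing the data left out the 3 libraries of low mitochondrial share. It kept 1 library at 1% protein, 20/1 replicate 2, which is 1 of the 2 with high Slc17a7. There the log2 fold change of Sgk1 was 1.02, and with 1 library at that level the fit cannot show whether the change held.

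Tsc22d3 encodes the glucocorticoid-induced leucine zipper, a transcriptional regulator that mediates part of the anti-inflammatory action of the hormone. It lies on the X chromosome (140539528 to 140600659, minus strand). With 1% protein the values were 184 and 257 CPM with 60% fat and 179.9 and 208 CPM with 20% fat. The libraries at 2.5% protein had 165 and 123 CPM with 60% fat and 159 and 141 CPM with 20% fat, and at 5% protein 142 and 174 CPM with 60% fat and 133 and 133 CPM with 20% fat. The libraries at 20% protein had 129 and 127 CPM with 60% fat and 140.4 and 156 CPM with 20% fat. The gap was narrow, with the lowest value at 1% protein, 179.9 CPM, just above the highest of the other 12, 174 CPM. Its log2 fold change of 0.58 ± 0.12 (SE; edgeR adjusted p = 0.00573) was the smallest of the 7 targets at 1% against 20% protein. The edgeR adjusted p was 0.0758 without the 3 libraries of low mitochondrial share, with the fold change still 0.58.

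Cdkn1a encodes p21, an inhibitor of cyclin-dependent kinases that halts the cell cycle and is also a target of p53. It lies on chromosome 17 (29090976 to 29100727, plus strand). At 1% protein it had 57.3 and 117 CPM with 60% fat and 65.3 and 111 CPM with 20% fat. At 2.5% protein it had 34.9 and 20.0 CPM with 60% fat and 35.8 and 33.3 CPM with 20% fat, and at 5% protein 35.4 and 33.7 CPM with 60% fat and 24.7 and 23.9 CPM with 20% fat. At 20% protein it had 15.9 and 24.9 CPM with 60% fat and 22.1 and 23.9 CPM with 20% fat. In both diets with 1% protein replicate 2 was far above replicate 1, with a gap of 1.03 on the log2 scale at 60% fat, yet both replicates exceeded all other libraries. The mean was 87.6 ± 30.7 CPM at 1% protein and 21.7 ± 4.03 CPM at 20% protein (SD, n = 4 each), and the log2 fold change of 2.01 ± 0.24 (SE; edgeR adjusted p = 0.000114) was the largest among the members.

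Hif3a encodes an alpha subunit of the hypoxia-inducible factors, some forms of which restrain the other alpha subunits. The gene lies on chromosome 7 (17031507 to 17062427, minus strand). The values at 1% protein were 46.0 and 50.5 CPM with 60% fat and 47.3 and 53.1 CPM with 20% fat, the tightest group of the 7 targets relative to its mean. Its values at 2.5% protein were 24.4 and 13.6 CPM with 60% fat and 32.4 and 24.9 CPM with 20% fat, and at 5% protein 24.6 and 31.0 CPM with 60% fat and 17.7 and 24.1 CPM with 20% fat. Its values at 20% protein were 14.5 and 14.8 CPM with 60% fat and 17.2 and 20.9 CPM with 20% fat. Groups at 2.5%, 5% and 20% protein overlapped, and those at 1% stood clear. The log2 fold change at 1% against 20% protein was 1.55 ± 0.19 (SE; edgeR adjusted p = 0.00018).

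Arrdc2 encodes an alpha-arrestin, a family of adaptor proteins in membrane protein trafficking. It lies on chromosome 8 (70835129 to 70839720, minus strand). At 1% protein the gene had 50.6 and 78.2 CPM with 60% fat and 59.8 and 65.6 CPM with 20% fat. At 2.5% protein the gene had 26.1 and 25.2 CPM with 60% fat and 45.4 and 42.5 CPM with 20% fat, and at 5% protein 31.1 and 44.9 CPM with 60% fat and 24.7 and 36.9 CPM with 20% fat. At 20% protein the gene had 21.3 and 17.9 CPM with 60% fat and 22.4 and 30.2 CPM with 20% fat. Its intermediate levels reached up to 45.4 CPM, close under the lowest library at 1% protein. The log2 fold change was 1.48 ± 0.21 (SE; edgeR adjusted p = 0.000413).

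Sult1a1 encodes a cytosolic sulfotransferase that conjugates phenols, catecholamines and some drugs. The gene lies on chromosome 7 (126672865 to 126676432, minus strand) and shares 61 bases with the coding gene Sgf29 on the other strand, so its count is uncertain to that extent. Its values at 1% protein were 16.6 and 21.5 CPM with 60% fat and 21.3 and 33.0 CPM with 20% fat. With 2.5% protein it had 10.2 and 7.33 CPM with 60% fat and 13.5 and 11.4 CPM with 20% fat, and at 5% protein 12.2 and 12.6 CPM with 60% fat and 8.80 and 10.5 CPM with 20% fat. With 20% protein it had 8.60 and 7.67 CPM with 60% fat and 9.08 and 11.2 CPM with 20% fat. The 12 libraries above 1% protein overlapped by level, and all were under 16.6 CPM. The log2 fold change was 1.33 ± 0.18 (SE; edgeR adjusted p = 0.00038).

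The receptor genes differed less. Nr3c1, the glucocorticoid receptor gene, lies on chromosome 18 (39410545 to 39519421, minus strand). The libraries at 1% protein had 65.7 and 61.7 CPM with 60% fat and 71.6 and 76.7 CPM with 20% fat. The libraries at 2.5% protein had 80.7 and 93.6 CPM with 60% fat and 79.5 and 84.6 CPM with 20% fat, and at 5% protein 76.0 and 81.2 CPM with 60% fat and 73.4 and 79.2 CPM with 20% fat. The libraries at 20% protein had 86.9 and 78.9 CPM with 60% fat and 78.3 and 84.7 CPM with 20% fat. All libraries at 1% protein were under those at 2.5% and 20% protein but overlapped those at 5%. Of all genes, 6.35% lay wholly lower at 1% than at 20% protein and 3.15% wholly lower at 1% than at 2.5%. Its log2 fold change was -0.25 ± 0.07 (SE; edgeR adjusted p = 0.0267), and -0.18 ± 0.06 with a gene length offset (SE; edgeR adjusted p = 0.0473). Nr3c1 lost its call in 5 of 24 alternatives. Leaving out 60/1 replicate 1, 60/1 replicate 2, 60/20 replicate 1 or 20/20 replicate 2 gave edgeR adjusted p of 0.0766, 0.0915, 0.0843 and 0.0749, and without the 3 libraries of low mitochondrial share the log2 fold change was -0.084 ± 0.096 (SE; edgeR adjusted p = 0.739).

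Nr3c2, the mineralocorticoid receptor gene, lies on chromosome 8 (76899442 to 77245012, plus strand). At 1% protein it had 35.4 and 34.6 CPM with 60% fat and 41.4 and 50.5 CPM with 20% fat. At 2.5% protein it had 32.9 and 34.9 CPM with 60% fat and 34.0 and 46.6 CPM with 20% fat, and at 5% protein 37.7 and 39.0 CPM with 60% fat and 37.8 and 40.3 CPM with 20% fat. At 20% protein it had 41.0 and 34.0 CPM with 60% fat and 36.6 and 40.5 CPM with 20% fat. All 4 protein levels overlapped, and the highest values, 50.5 and 46.6 CPM, were those of the libraries with high Slc17a7. The log2 fold change at 1% against 20% protein was 0.081 ± 0.10 (SE; edgeR adjusted p = 0.619), and it was -0.032 without those libraries.

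Hsd11b1 encodes the enzyme that regenerates active corticosterone from its inert 11-keto form inside cells. It lies on chromosome 1 (193221634 to 193264075, minus strand) and had 0 counts in all 16 libraries. The whole gene falls within the span over which Lamb3 was counted on the other strand (193207699 to 193343878, 3620 counts in all). Of coding genes lying wholly within another gene counted over its whole span, 546 of 546 on the other strand and 294 of 294 on the same strand had no count, against 1638 of 14915 (11%) of coding genes not so placed. The zero for Hsd11b1 therefore says nothing of its expression, and its level could not be read from these counts.

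Across the protein levels the largest step of the targets lay between 1% and 2.5% protein. At 1% against 2.5% protein, 6 targets were called higher and Nr3c1 was called lower, that is 7 of 9 members, where 1.39% of all genes were called higher and 0.931% lower. The log2 fold changes of the called targets ran from 0.49 for Tsc22d3 to 1.5 for Cdkn1a, with 1.13 for Fkbp5 (edgeR adjusted p = 0.000865). Sgk1 stood at 0.76 ± 0.22 (SE; edgeR adjusted p = 0.078), and Nr3c1 at -0.30 ± 0.07 (SE; edgeR adjusted p = 0.0348). The diets with 1% and 2.5% protein share the start of their diet code, as do those with 5% and 20%, so this contrast stays within a code while 1% against 20% crosses codes. Without 60/1 replicate 2, 60/2.5 replicate 1, 60/2.5 replicate 2 or 20/1 replicate 1, 4 members were called. The shares of all genes called in those fits are not given here, so this count shows no change particular to the members. The fit without the 3 libraries of low mitochondrial share rests on 1 library at 1% protein.

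**Figure D2:**
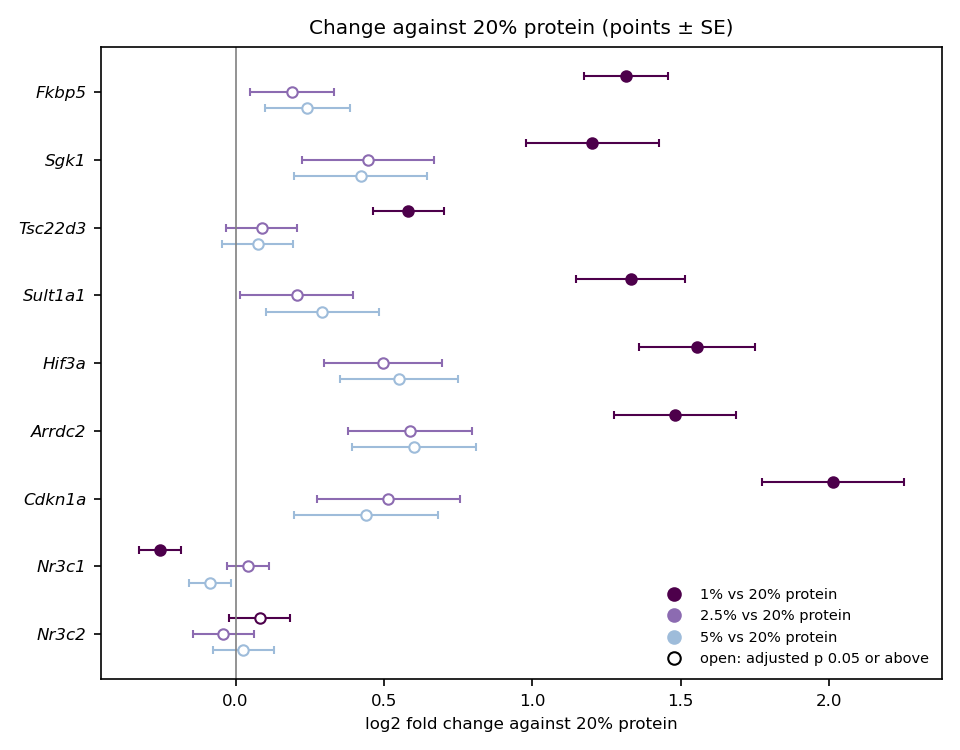
Log2 fold change against 20% protein for 9 genes at 1%, 2.5% and 5% protein, as points with SE bars, filled where the edgeR adjusted p is under 0.05. For the 7 targets the points at 1% protein stand apart from those at 2.5% and 5%, which are all open.

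At 2.5% against 20% and at 5% against 20% protein none of the 9 members was called by edgeR or DESeq2, where 0.00601% and 0.03% of all genes were called by edgeR. The 7 targets nevertheless had positive log2 fold changes in both, from 0.088 for Tsc22d3 to 0.59 ± 0.21 for Arrdc2 at 2.5% protein and from 0.075 for Tsc22d3 to 0.60 ± 0.21 for Arrdc2 at 5% protein (SE). Before adjustment 3 members, Hif3a, Arrdc2 and Cdkn1a, were under 0.05 by edgeR at 2.5% protein, and 2, Hif3a and Arrdc2, at 5% protein, where 4.81% and 3.01% of all genes were. The log2 fold change at 2.5% protein was 14.4% of that at 1% for Fkbp5 and 39.8% for Arrdc2, the lowest and highest of the 7, and at 5% protein 12.8% for Tsc22d3 and 40.6% for Arrdc2. Both contrasts share their 4 libraries at 20% protein with that of 1% against 20%. Between 2.5% and 5% protein all 7 targets had log2 differences between -0.086 for Sult1a1 and 0.076 for Cdkn1a, and no member or other gene was called by edgeR or, among the members, by DESeq2, with none of the members and 4.31% of all genes at an unadjusted p under 0.05. Fkbp5 was the only target whose 4 libraries at 5% protein all lay above those at 20%, an arrangement in that direction found in 1.59% of genes.

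Under the linear model named in the series' design, with protein as a straight line, none of the 9 members was called by edgeR (0.018% of all genes were). Scaled as the change at 1% against 20% protein, the slope of Cdkn1a was 1.49 ± 0.40, that of Arrdc2 1.14 ± 0.26 and that of Fkbp5 0.88 ± 0.27 (SE; edgeR adjusted p = 0.181, 0.142 and 0.21). All 7 targets had an unadjusted p under 0.05, as had 14.6% of all genes. With protein on a log2 scale all 7 were called by edgeR, where 7.88% of all genes were. DESeq2 on the linear scale called 2, Hif3a and Arrdc2, and 0.493% of all genes.

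The change at low protein was present at both fat levels. With 60% fat, 7 targets were called higher and Nr3c1 lower at 1% against 20% protein, where 1.97% of genes were called higher and 2.28% lower. With 20% fat, Fkbp5, Sult1a1, Hif3a, Arrdc2 and Cdkn1a were called higher, where 0.601% of genes were. The fold changes of Fkbp5 were close, 1.35 ± 0.20 with 60% fat and 1.28 ± 0.20 with 20% fat on the log2 scale (SE). Those of Cdkn1a were 2.1 ± 0.33 and 1.93 ± 0.33 at those fat levels, and those of Hif3a 1.72 ± 0.23 and 1.40 ± 0.22.

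Arrdc2 had a log2 fold change of 1.71 ± 0.23 with 60% fat and 1.25 ± 0.23 with 20% fat, and Sult1a1 one of 1.23 ± 0.22 and 1.42 ± 0.21 (SE), so that Sult1a1 was the 1 target of 7 with the smaller estimate at 60% fat. Sgk1, Tsc22d3 and Nr3c1 were called with 60% fat and not with 20% fat. Sgk1 stood at 1.54 ± 0.26 with 60% fat (SE; edgeR adjusted p = 0.00964) and 0.87 ± 0.25 with 20% fat (edgeR adjusted p = 0.106). Tsc22d3 stood at 0.78 ± 0.16 with 60% fat (edgeR adjusted p = 0.024) and 0.39 ± 0.16 with 20% fat (edgeR adjusted p = 0.251), and Nr3c1 at -0.38 ± 0.09 (edgeR adjusted p = 0.0411) and -0.14 ± 0.09 (edgeR adjusted p = 0.504). A test for a difference of the effect by fat level called none of the 9 members by edgeR or DESeq2 and none had an unadjusted p under 0.05, where 7.84% of all genes had one. The difference was 0.46 ± 0.32 for Arrdc2 (SE; edgeR adjusted p = 0.687), 0.67 ± 0.35 for Sgk1, 0.39 ± 0.22 for Tsc22d3 and -0.24 ± 0.13 for Nr3c1 (SE; edgeR adjusted p = 0.633, 0.635 and 0.632), and 0% of all genes were called. Nr3c2 was called at neither fat level, at -0.10 ± 0.14 with 60% fat and 0.25 ± 0.14 with 20% fat (SE). Its difference was -0.35 ± 0.20 (SE; edgeR adjusted p = 0.633). These contrasts set 2 libraries against 2 and changed with single libraries. With 60% fat, 1 member was called without 60/1 replicate 2, 3 without 60/20 replicate 1 and 2 without 60/20 replicate 2. With 20% fat, none was called without 20/20 replicate 1 and 2 were called without 20/20 replicate 2. The shares of all genes called in those fits are not given here, so these counts show no change particular to the members.

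**Figure D3:**
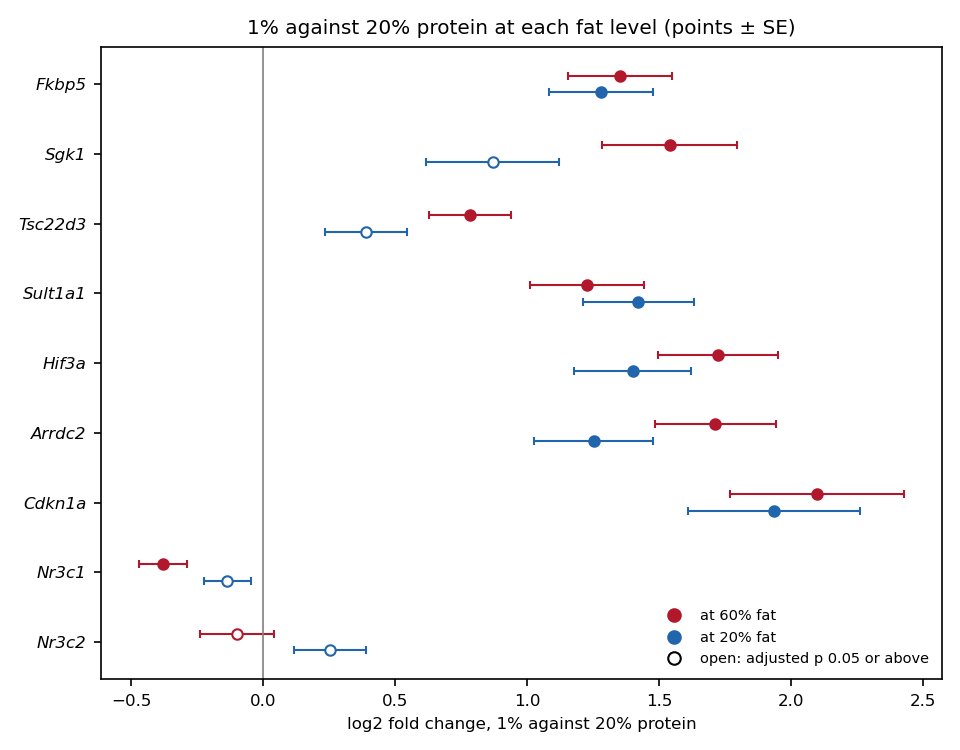
Log2 fold change at 1% against 20% protein within 60% fat (red) and within 20% fat (blue), as points with SE bars, filled where the edgeR adjusted p is under 0.05. The bars of Fkbp5 and Cdkn1a overlap, while Sgk1, Tsc22d3 and Nr3c1 lie further from 0 with 60% fat. Nr3c2 lies below 0 with 60% fat and above 0 with 20% fat, both open.

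Fat itself left no call among the 9 members over all protein levels by edgeR or DESeq2 (0.00601% of all genes were called by edgeR). Fkbp5 averaged 68.3 ± 33.0 CPM with 60% fat and 68.6 ± 32.7 CPM with 20% fat (SD, n = 8 each), a log2 difference of -0.014 ± 0.099 (SE). Nr3c2 was the 1 member of 9 with an unadjusted p under 0.05, where 7.79% of all genes had one, with 36.2 ± 2.77 CPM at 60% fat and 41.0 ± 5.37 CPM at 20% fat (SD, n = 8 each). Its log2 difference was -0.18 ± 0.07 (SE; edgeR adjusted p = 0.628).

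Within diets the targets tended to differ in the same direction between replicates. The replicate with more Fkbp5 also had more Hif3a in 8 of 8 diets, more Sgk1, Sult1a1 and Arrdc2 in 7 of 8, and more Tsc22d3 and Cdkn1a in 6 of 8. In the diet of 20% fat with 5% protein the replicates were all but tied in Fkbp5, at 50.93 and 50.95 CPM, so that its direction there carries no weight. For Nr3c1 and Nr3c2 it was 4 of 8. At 60% fat with 2.5% protein, for instance, replicate 2 was lower than replicate 1 in all 7 targets and higher in Nr3c1. Members of a library share its depth, scaling and dissection, so these counts describe the libraries and carry no test.

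**Figure D4:**
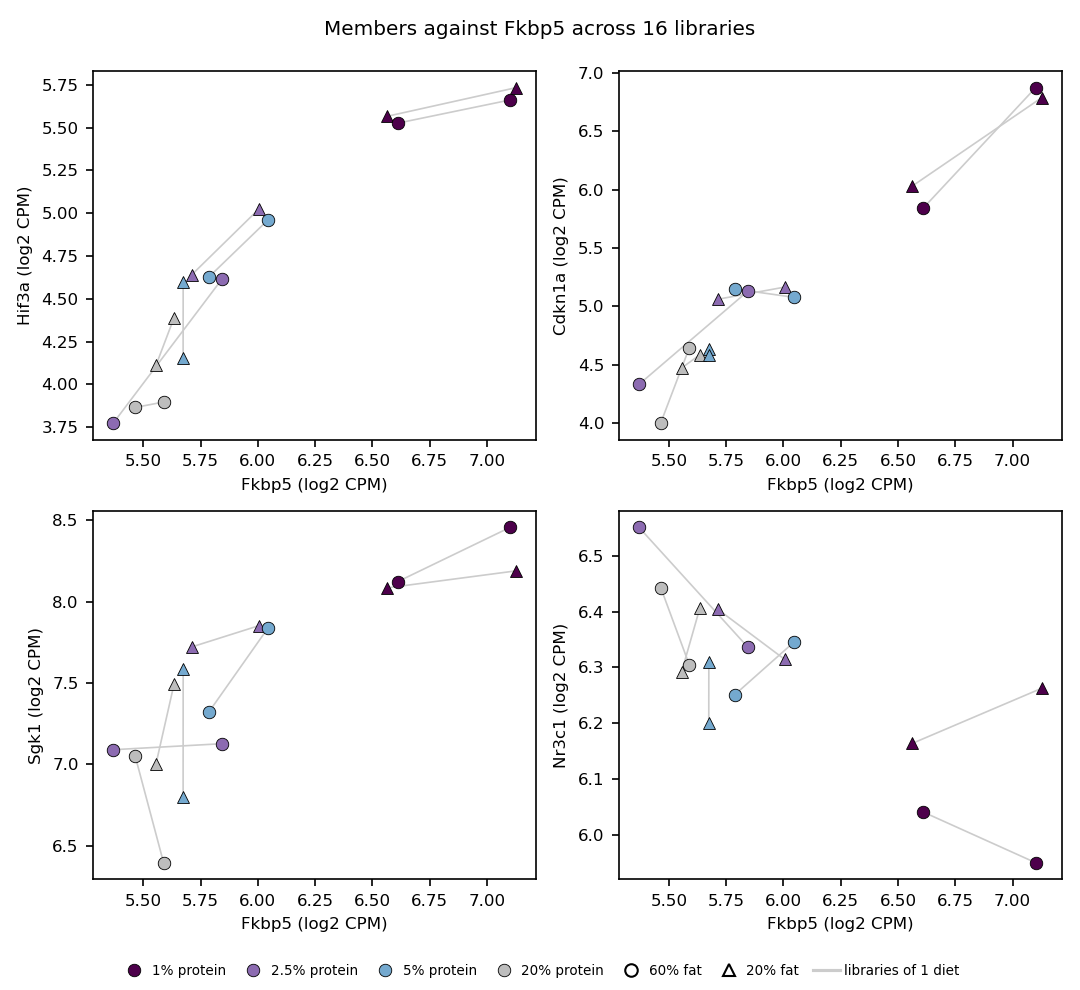
Log2 CPM of Hif3a, Cdkn1a, Sgk1 and Nr3c1 against Fkbp5 in 16 libraries, coloured by protein level, with circles for 60% fat, triangles for 20% fat and grey lines joining the libraries of a diet. Hif3a climbs with Fkbp5 within the diets, except that Fkbp5 is all but tied at 20% fat with 5% protein. The lines of Nr3c1 slope both ways.

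Among the 13190 genes ranked by their Pearson correlation with Fkbp5 over the 16 libraries, Cdkn1a stood at 0.977, Sult1a1 at 0.950, Hif3a at 0.938, Tsc22d3 at 0.935, Arrdc2 at 0.882 and Sgk1 at 0.823. Nr3c1 stood at -0.749 and Nr3c2 at 0.224. Because the 4 libraries at 1% protein stand apart, the values were also taken over the 12 libraries at higher protein, where Hif3a had 0.929, Cdkn1a had 0.859 and Sgk1 0.609, while Nr3c1 had -0.468 and Nr3c2 -0.102. The 5 genes outside the members most like Fkbp5 were Gabrr2 at 0.974, Klf15 at 0.972, Pla2g3 at 0.967, Pnpla2 at 0.966 and Aff1 at 0.964, with 0.852 to 0.926 over the 12 libraries. Gabrr2 encodes a GABA receptor subunit, Klf15 a transcription factor induced by glucocorticoids, Pnpla2 the triglyceride lipase ATGL, Pla2g3 a secreted phospholipase and Aff1 a part of the elongation machinery of RNA polymerase II. For Nr3c1 the 5 most like were St18, Dnah11, Zfp937, Cacna2d1 and Plxdc2, at 0.939, 0.925, 0.912, 0.911 and 0.909. The points share libraries, depth and scaling, and no p is given.

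Many other genes known to be induced by glucocorticoids were also higher at 1% protein. The list was drawn up with earlier results of these data known, so its counts describe and carry no test. Of 35 listed, 33 were tested, and at 1% against 20% protein 19 were called higher, 0 lower and 14 not, with a median log2 fold change of 0.44. Of all genes tested, 8.26% were called higher there and 6.01% lower, with a median of 0.0035. Plin4, a lipid droplet coat protein whose gene overlaps that of Hdgfl2, had 83.5 ± 23.3 CPM at 1% protein and 17.4 ± 5.72 CPM at 20% protein (SD, n = 4 each), a log2 fold change of 2.27 ± 0.32 (SE; edgeR adjusted p = 0.000438). Angptl4, which blocks lipoprotein lipase, had 15.7 ± 1.11 CPM and 6.35 ± 0.651 CPM at those levels, and a log2 fold change of 1.31 ± 0.11 (edgeR adjusted p = 4.59e-06). Cebpd, a transcription factor of the C/EBP family, and Map3k6, a stress kinase, had log2 fold changes of 1.25 ± 0.15 and 1.18 ± 0.17 (SE; edgeR adjusted p = 0.00015 and 0.000525). Of the same 33 genes, 12 were called higher at 1% against 2.5% protein, 3 at 5% against 20% and none at 2.5% against 20%. Among all genes 1.39% were called higher at 1% against 2.5% protein. In either direction 0.03% were called at 5% against 20% and 0.00601% at 2.5% against 20%. In the promoter windows of the listed genes the palindrome was found in 0 of 34. A looser form of it, GNACANNNTGTNC, was found in 4 of 34, against 0.475% of all windows. The single arm AGAACA was found in 3 of 34, against 19% of all windows.

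The signalling side of the pathway, made up of the peptides and pituitary axis genes, steroid enzymes, chaperones and co-regulators, held calls in both directions. Of 30 listed genes 25 were tested, and at 1% against 20% protein 1 was called higher, 4 lower and 20 not, with a median log2 fold change of -0.074, where 8.26% of all genes were called higher and 6.01% lower. Crh, the releasing hormone at the head of the axis, had 14 ± 1.40 CPM at 1% protein and 11.1 ± 0.741 CPM at 20% protein (SD, n = 4 each), and a log2 fold change of 0.33 ± 0.10 (SE; edgeR adjusted p = 0.0321). Crh was not called in 8 of 24 alternatives: with the gene length offset (edgeR adjusted p = 0.0821), without the 3 libraries of low mitochondrial share (0.640), and without any 1 of 60/1 replicates 1 and 2, 60/20 replicates 1 and 2, 20/1 replicate 1 and 20/20 replicate 2 (0.0667 to 0.125). Pomc, which encodes the precursor of ACTH in the pituitary and of melanocortins in the hypothalamus, had 12.7 ± 1.2 CPM at 1% protein and 47.5 ± 7.56 CPM at 20% protein (SD, n = 4 each), a log2 fold change of -1.91 ± 0.19 (SE; edgeR adjusted p = 2.67e-05). Pituitary markers summed to 0.281 to 1.84 CPM at 1% protein and 1.24 to 8.70 CPM at 20% protein, with Tshb, which lies inside another counted gene, at 0 throughout. Avp, the vasopressin gene, had 175 ± 59.5 CPM and 262 ± 19.7 CPM at those levels, a log2 fold change of -0.58 ± 0.19 (SE; edgeR adjusted p = 0.0496). Avp was called in 11 of 24 alternatives, with adjusted p from 0.0113 to 0.150, by DESeq2 0.0544 and without the 2 libraries with cortex markers 0.0501. The other genes called lower were Hsp90aa1, a chaperone of the receptor, at -0.45 ± 0.14 (edgeR adjusted p = 0.0374), and Abcb1a, a transporter that exports steroids at the blood-brain barrier, at -0.49 ± 0.11 (edgeR adjusted p = 0.0123), beside the lower endothelial markers given above. Without the 3 libraries of low mitochondrial share the log2 fold changes of Hsp90aa1 and Abcb1a were 0.035 and -0.21 (edgeR adjusted p = 0.944 and 0.602), and Hsp90aa1 also lost its call without any 1 of 7 libraries at 1% or 20% protein. Pomc was called lower in all 24 alternatives. Of these 25 genes 2 were called without 60/1 replicate 2, 60/20 replicate 2 or 20/20 replicate 2, 3 without 60/1 replicate 1, 60/20 replicate 1 or 20/1 replicate 1, and 8 without 20/1 replicate 2. Over the 16 single omissions 939 to 5616 of all genes were called, so these counts show no change particular to the list.

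**Figure D5:**
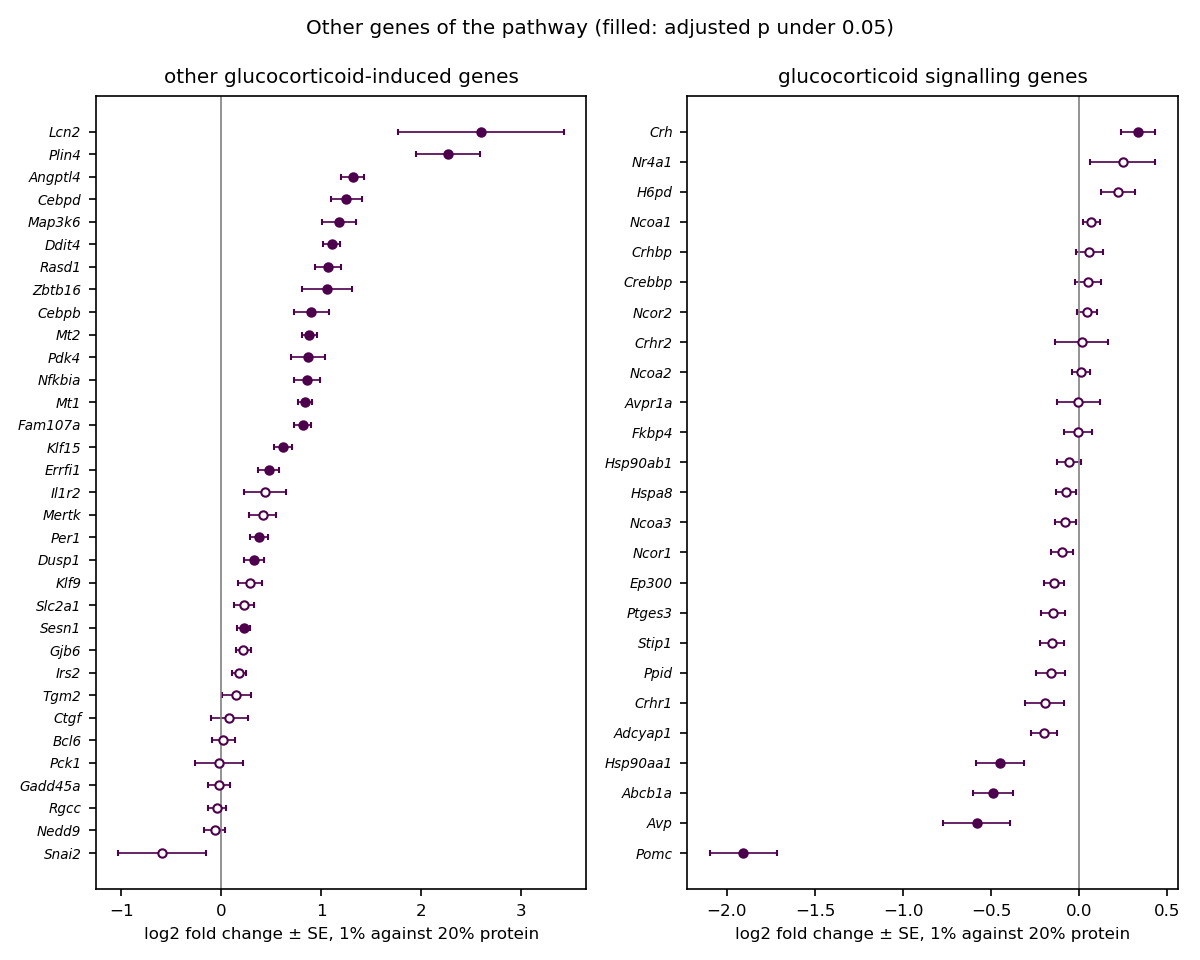
Log2 fold change ± SE at 1% against 20% protein for 33 other glucocorticoid-induced genes (left) and 25 signalling genes (right), sorted by value, filled where the edgeR adjusted p is under 0.05. On the left 19 genes are called higher and 0 lower, and on the right 1 is called higher and 4 lower. Of all genes tested, 8.26% are called higher and 6.01% lower.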

How the data were processed

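Hypothalamic RNA of 16 libraries was measured by sequencing. The authors deposited raw counts per gene, made with HISAT2 2.1.0, SAMtools 1.2 and featureCounts (Subread 5.0) on GRCm38, per the submitters' processing notes. Most genes were counted over their whole span, introns included, per the file's lengths. No source used here gives the strand setting. Genes passing filterByExpr (minimum count 10), 16646 of 47069, were scaled by TMM. The quasi-likelihood F test of edgeR 4.0.16 (R 4.3.3) was fitted to all 16 libraries, with Benjamini-Hochberg adjustment over all genes at 0.05. Models took protein as 4 levels with fat, the 8 diets as groups, or protein as a line with fat and their interaction, dropped at p above 0.05. For log2 CPM the prior count was 2. Replicates differed beyond sampling noise (chi-square per gene 3.02 to 25.3), so none was merged.

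The members and lists were chosen with earlier results of these data known, and lists are described by counts with no test. Outside the members the text names, at a mean of at least 1 CPM, up to 4 highest and 2 lowest called genes of each list and the 5 genes most like Fkbp5 and Nr3c1. Hsp90aa1 and Abcb1a were named after their values were seen. Alternatives were median-ratio scaling, DESeq2 1.42.0, other count filters, the replicate block, log2 protein, a diet code term, a gene length offset and leaving out libraries. The steps were tested on simulated counts of 16492 genes for 1% against 20% protein. They recovered 54% of 100 genes with a true log2 change of 0.5 and 82% of 100 with 1, and 5 of 141 calls were false. The simulated libraries held no shared shifts of mitochondrial share, gene length or tissue content, so these rates need not hold for the measured libraries.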

Additional observations from a re-analysis of the deposited data

Results flagged for a closer look

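Of 36 groups of 4 libraries examined, 9 genes at 4 protein levels, 2 held a library whose gap to the nearest other exceeded Dixon's critical share of the group's range on the log2 CPM scale. Chance alone gives about 1 such group in 20. In Cdkn1a at 2.5% protein the lowest library, replicate 2 of 60% fat at 20.0 CPM, had a gap of 0.8752 of the range. In Nr3c2 at 2.5% protein the highest library, replicate 2 of 20% fat at 46.6 CPM, had a gap of 0.8296 of the range, and this library also held 10337 counts of the cortical gene Slc17a7.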

How the results depend on the processing

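At 1% against 20% protein, 8 members were called under median-ratio scaling, DESeq2, no count filter, a filter at 1 CPM in 4 libraries, a gene length offset and without the 2 libraries with cortex markers. Without the 3 libraries of low mitochondrial share 5 were, with Sgk1, Tsc22d3 and Nr3c1 lost, and leaving out single libraries gave 7 to 8. Fkbp5, Sult1a1, Hif3a, Arrdc2 and Cdkn1a were called higher in all 24 alternatives. At 1% against 2.5% protein the count of 7 was 3 without the 3 libraries and 4 to 8 without single ones. With 60% fat it was 1 to 8 and with 20% fat 0 to 5 without single libraries. The shares of all genes called in these fits are not given here. The slope called 0 members, but 2 by DESeq2 and 7 on a log2 protein scale. With the diet code term the slope called no member, as it did without that term. Of the induced genes 15 to 21 were called under all alternatives. Of the signalling genes 8 were called without the 2 libraries with cortex markers and 3 without the 3 libraries, with 2 to 8 without single libraries. Of all genes, 2376 became 5889, 403 and 939 to 5616 under the same settings.

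Reversed signs were small and none was called. Hsp90aa1 at 1% against 20% protein was 0.035 without the 3 libraries. Nr3c2 at 1% against 20% protein was -0.032 without the libraries with cortex markers, and -0.024 to 0.15 without single libraries. Its slope was -0.060 and -0.051 to 0.11 under the same settings. With 60% fat it was 0.023 under the length offset and -0.24 to 0.035 without single libraries. The single omissions also gave -0.14 to 0.039 for Nr3c2 at 2.5% against 20% protein, -0.025 to 0.11 at 5% against 20%, -0.019 to 0.078 for Nr3c1 at 2.5% against 20% and -0.019 to 0.15 for Tsc22d3 at 5% against 20%. The cause of these changes was not tested. Of 1809 values of single genes, 1689 kept their direction and side of the threshold.

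The replicate numbers did not pair the libraries. The correlation of replicate differences between diets ran from -0.17 to 0.34, with 7 of 28 above 0.1. With the replicate number as a block, 8 members, 7 at 1% against 2.5% protein, and 2786 of all genes were called. Without the 3 libraries no fit at 60% fat was possible, since none of its 1% libraries remained. The 1 library at 1% protein that remained was 20/1 replicate 2, which is 1 of the 2 with cortex markers. Diet code and protein level cannot be told apart across codes. No simulation was made for the contrasts between fat levels.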

Other observations

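Further glucocorticoid-induced genes called higher at 1% protein are named here after their values were seen. The metallothionein genes Mt1 and Mt2, which bind zinc and copper, had 365 ± 16.5 and 151 ± 2.53 CPM at 1% protein, against 204 ± 10 and 82.3 ± 7.95 CPM at 20% protein (SD, n = 4 each; edgeR adjusted p = 3.51e-06 and 5.78e-06). Ddit4, a stress-induced inhibitor of mTORC1, had 106 ± 7.84 CPM at 1% protein and 49.1 ± 2.43 CPM at 20% protein (SD, n = 4 each), a log2 fold change of 1.10 ± 0.08 (SE; edgeR adjusted p = 1.38e-06). At 2.5% against 20% protein the log2 fold changes of Mt2, Mt1 and Ddit4 were 0.45, 0.39 and 0.31 (edgeR adjusted p = 0.0664, 0.0807 and 0.357).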
